A study of Mus musculus with 12 samples.

Results

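The 9 genes described here, Cxcl12, Cxcr4, Angpt2, Tek, S1pr1, Cd34, Icam1, Mcam and Apln, encode signals, receptors and adhesion proteins of blood vessels. They were chosen by symbol, and are 9 of the 1017 genes listed in the 2 deposited tables of genes called between BK KO and WT mice. All 9 were listed in hippocampus, and Cxcl12, Tek and Apln were also listed in cortex. RNA of hippocampus and cortex was sequenced from 3 adult WT and 3 adult BK KO mice of the C57BL/6 strain, which gave 12 libraries in 4 groups. The BK KO genotype, kcnma1-/-, carries a frameshift deletion made with CRISPR/Cas9 in the gene of the BK channel pore subunit in every cell, and its carriers came from crosses of BK+/- parents. The values are FPKM, fragments scaled to transcript length and library size, and the number of reads behind each value is unknown.

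Cxcl12 is a chemokine that endothelial and other stromal cells secrete and that binds the receptor Cxcr4. Angpt2 and Tek belong to the angiopoietin system, in which Angpt1 activates the endothelial receptor Tek, also called Tie2, and Angpt2 mostly opposes it when vessels are remodelled. Apln is a peptide made by sprouting endothelium and by neurons, S1pr1 is the receptor through which sphingosine-1-phosphate steadies the endothelial barrier, and in brain it is also abundant in astrocytes. Cd34, Mcam and Icam1 are surface glycoproteins of vessel cells, and Icam1 is the ligand that leukocyte integrins hold on to.

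The targeted gene Kcnma1 was lower in all BK KO libraries. It ranged from 9.67 to 11.3 FPKM in WT hippocampus and from 2.54 to 2.82 FPKM in BK KO hippocampus. In cortex its lowest WT library was at 9.82 FPKM and its highest BK KO library at 3.09 FPKM. Its log2 fold change was -1.63 in hippocampus and -1.63 in cortex, each with a standard error of 0.10.

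Genes enter the tables only when the authors called them on these libraries, with limits of 0.05 on the unadjusted p-value and 0.58 on the size of the log2 fold change. The members' genotype differences were therefore selected, and what follows describes their size and spread and is no independent test. The limma fit on log2(FPKM + 1) covered all 652 genes listed in hippocampus and all 561 listed in cortex, and a gene was counted as past the threshold when its limma values met the same limits. In hippocampus 6 members were lower and 3 were higher in BK KO mice, and in cortex the 3 listed members were lower. Lower genes made up 58.1% of all genes listed in hippocampus and 70.4% of those in cortex.

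Past the threshold in hippocampus were 5 members, beside 42.6% of all listed genes. They were 4 lower members (Cxcl12, Apln, S1pr1 and Cd34), beside 21.9% of listed genes, and 1 higher (Angpt2), beside 20.7%. In cortex 2 of the 3 members, Cxcl12 and Apln, were past it, beside 30.8% of the listed genes and 20.0% of them in the lower direction. The pseudocount of 1 shrinks the fold changes of low genes, and with 0.1 in its place all 9 members in hippocampus and all 3 in cortex were past the threshold, beside 84.0% and 72.7% of listed genes. The BK KO and WT libraries of all 9 members did not overlap in hippocampus, as in 79.9% of listed genes, and nor did those of the 3 members in cortex, as in 80.6%. For each of these 12 comparisons the two-sided exact permutation test gave p = 0.1, the smallest p that 3 libraries against 3 allow. The members' shares lie in a selected table and are read only as descriptions.

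**Figure D1:**
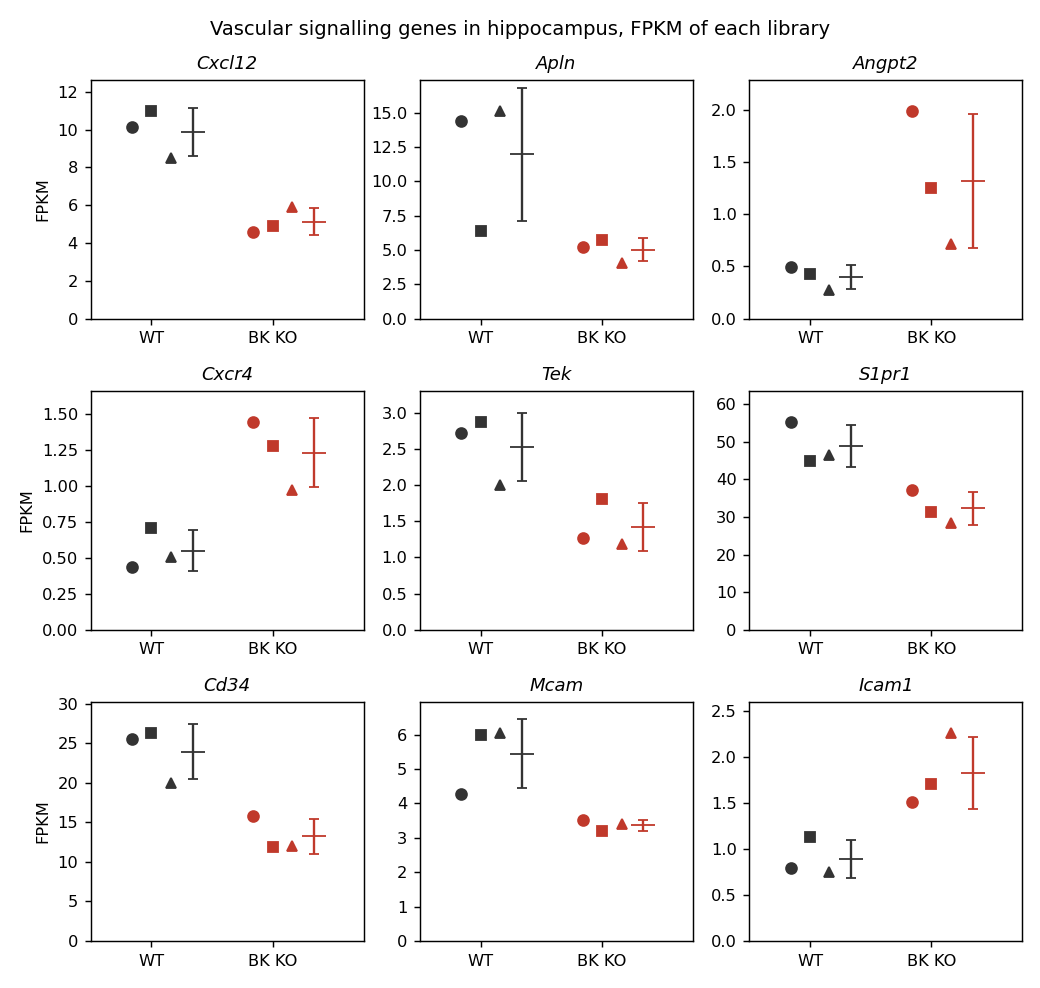
FPKM in hippocampus (vertical axes, from 0) of the 9 genes in the 3 WT and 3 BK KO libraries. Symbols mark the replicate number (circle 1, square 2, triangle 3), and the bar beside each group is the mean ± SD. In each panel the 2 groups are apart, with Angpt2, Cxcr4 and Icam1 higher in BK KO mice and the other 6 lower.

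The start of each gene was looked up in RefSeq (build GRCm38.p6), where 7 of the 9 members had a promoter sequence, 250 bases before to 50 after the start. Those of Cxcl12, Tek and Apln are shown because these genes were lower in both tissues, and that of Icam1 because it was the one member promoter with the ETS core. Cxcl12 lies at chr6:117168285-117168584 on the plus strand, Tek at chr4:94739039-94739338 on the plus strand, Apln at chrX:48034804-48035103 on the minus strand and Icam1 at chr9:21015690-21015989 on the plus strand. Capitals mark GGGTG, a KLF and SP core, or CCGGAA, the ETS core, on either strand.
Cxcl12: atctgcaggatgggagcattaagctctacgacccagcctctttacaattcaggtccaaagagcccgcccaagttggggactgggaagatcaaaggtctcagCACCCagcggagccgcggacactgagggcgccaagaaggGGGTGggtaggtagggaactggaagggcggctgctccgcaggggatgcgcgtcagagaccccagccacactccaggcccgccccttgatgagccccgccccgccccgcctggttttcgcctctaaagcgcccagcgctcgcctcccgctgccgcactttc
Tek: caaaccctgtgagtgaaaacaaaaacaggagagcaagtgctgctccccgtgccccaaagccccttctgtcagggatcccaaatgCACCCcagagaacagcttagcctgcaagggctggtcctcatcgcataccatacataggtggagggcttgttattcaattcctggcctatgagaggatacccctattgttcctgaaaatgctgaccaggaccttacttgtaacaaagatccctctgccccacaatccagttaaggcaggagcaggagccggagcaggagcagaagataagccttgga
Apln: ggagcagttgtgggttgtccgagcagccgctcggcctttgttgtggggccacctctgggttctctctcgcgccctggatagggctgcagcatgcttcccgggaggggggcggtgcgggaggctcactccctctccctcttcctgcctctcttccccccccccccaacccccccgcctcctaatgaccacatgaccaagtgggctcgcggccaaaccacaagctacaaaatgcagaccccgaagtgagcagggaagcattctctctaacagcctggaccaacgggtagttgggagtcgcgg
Icam1: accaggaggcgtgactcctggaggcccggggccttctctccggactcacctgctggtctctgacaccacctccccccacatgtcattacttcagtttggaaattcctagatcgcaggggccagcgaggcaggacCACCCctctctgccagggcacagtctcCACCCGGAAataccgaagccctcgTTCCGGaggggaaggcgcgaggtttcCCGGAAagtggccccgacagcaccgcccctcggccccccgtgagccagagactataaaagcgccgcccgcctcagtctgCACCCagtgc

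GGGTG was in 5 of the 7 member promoters, beside 57.5% of 32851 mouse promoters of the same length. Cxcl12 held it in both orientations, Tek once, and Apln not at all. CCGGAA was in 1 of the 7, Icam1, beside 14.9% of all promoters, with 3 matches, one of which overlaps a GGGTG match on the other strand. The letters ACGTG, a form of the hypoxia response element, were in 0 of 7, beside 19.6%. The form GCGTG was not searched, and its letters occur in the promoters of Icam1 and Cxcr4. The E-box CACGTG, which contains ACGTG, was in 0 beside 7.15%, and the AP-1 site (TGACTCA or TGAGTCA) in 0 beside 5.2%. A match of letters is no bound site, and its absence from a window of this length says nothing of the factor.

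Among the ligands, Cxcl12 was lower in BK KO mice by a similar amount in both tissues. Cxcl12 was 10.1, 10.99 and 8.50 FPKM in WT hippocampus and 4.56, 4.89 and 5.92 FPKM in BK KO hippocampus. The lowest WT library stood above the highest BK KO library. The means were 9.88 ± 1.26 (SD, n = 3) and 5.13 ± 0.711 FPKM (SD, n = 3), a BK KO to WT ratio of 0.519. The log2 fold change was -0.83 (standard error 0.14, limma adjusted p = 0.0142). In bulk RNA, a lower level from fewer cells of a type and one from less RNA per cell cannot be told apart, for this gene and for all that follow.

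Cxcl12 in cortex was 10.6, 12.6 and 8.41 FPKM in WT mice and 4.91, 5.43 and 7.05 FPKM in BK KO mice. The groups did not overlap here either, and replicate 3 was the lowest of the WT libraries and the highest of the BK KO libraries in both tissues. The ratio of the means was 0.550 and the log2 fold change was -0.76 (standard error 0.18, limma adjusted p = 0.0245). Cxcl12 held place 35 of 652 in hippocampus and place 47 of 561 in cortex when listed genes were ordered from the most negative log2 fold change. Cxcl12 stayed past the threshold in all 6 fits of each tissue that left out 1 library.

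Apln had the largest decrease of the 9 genes in either tissue. Apln in hippocampus was 14.4, 6.39 and 15.1 FPKM in WT mice and 5.21, 5.76 and 4.08 FPKM in BK KO mice. Replicate 2 of WT lay far below the other WT libraries and just above the BK KO libraries, so that the groups were barely apart. The means were 11.96 ± 4.84 (SD, n = 3) and 5.02 ± 0.856 FPKM (SD, n = 3), and the log2 fold change was -1.03 (standard error 0.31, limma adjusted p = 0.0266). Without that library the log2 fold change was -1.40, the most negative of the 6 fits that left out 1 library, all of which were past the threshold.

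Apln in cortex was 13.7, 8.67 and 11.3 FPKM in WT mice and 4.49, 4.34 and 4.64 FPKM in BK KO mice. Here the 3 BK KO libraries lay close together and well below the WT libraries. The ratio of the means was 0.400 and the log2 fold change was -1.13 (standard error 0.16, limma adjusted p = 0.0217). Apln held place 11 of 652 in hippocampus and place 12 of 561 in cortex from the most negative end. The other genes of a short apelin list, the receptor Aplnr and the second ligand Apela, were not among the listed genes of either tissue.

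Angpt2 was the ligand that rose. Angpt2 in hippocampus was 0.499, 0.424 and 0.275 FPKM in WT mice and 1.99, 1.25 and 0.711 FPKM in BK KO mice. The 3 BK KO libraries were spread widely, but the lowest of them still lay above every WT library. The means were 0.399 ± 0.114 (SD, n = 3) and 1.32 ± 0.641 FPKM (SD, n = 3), a ratio of 3.30. The log2 fold change was 0.69 (standard error 0.21, limma adjusted p = 0.0266), and it was 0.49, no longer past the threshold, without replicate 1 of BK KO. The pseudocount of 1 weighs heavily at this level, and with 0.1 in its place the log2 fold change of Angpt2 was 1.43. The authors' base means, group means of read counts divided by size factors, were 32.3 in WT and 106 in BK KO hippocampus.

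Among the receptors, Tek was lower in both tissues and Cxcr4 was higher in hippocampus. Tek in hippocampus was 2.72, 2.87 and 2.00 FPKM in WT mice and 1.27, 1.80 and 1.18 FPKM in BK KO mice. The highest BK KO library came near the lowest WT library without reaching it. The log2 fold change was -0.54 (standard error 0.15, limma adjusted p = 0.0237), short of the fold threshold on this scale. Tek in cortex was 2.74, 2.66 and 2.00 FPKM in WT mice and 1.44, 1.43 and 1.64 FPKM in BK KO mice. These groups were apart as well, with the log2 fold change at -0.46 (standard error 0.11, limma adjusted p = 0.0250). Replacing the pseudocount by 0.1 gave Tek log2 fold changes of -0.80 and -0.67, past the threshold in both tissues.

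Cxcr4, listed in hippocampus, was 0.436, 0.708 and 0.505 FPKM in WT mice and 1.44, 1.28 and 0.971 FPKM in BK KO mice. All 3 BK KO libraries lay above the WT libraries, the direction opposite to that of its ligand Cxcl12. The ratio of the means was 2.24, and the log2 fold change of 0.52 (standard error 0.13, limma adjusted p = 0.0187) missed the fold threshold. With a pseudocount of 0.1 it was 1.04. The authors' base means of Cxcr4 were 23.2 and 52.4, the lowest of the members.

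S1pr1 was the most abundant member. It was 55.2, 44.8 and 46.4 FPKM in WT hippocampus and 37.0, 31.4 and 28.5 FPKM in BK KO hippocampus. The BK KO libraries were all below the WT libraries. The means were 48.8 ± 5.61 (SD, n = 3) and 32.3 ± 4.35 FPKM (SD, n = 3), a ratio of 0.661, and the log2 fold change was -0.58 (standard error 0.14, limma adjusted p = 0.0187). This value passed the threshold narrowly, and 3 of the 6 fits that left out 1 library (without WT replicate 1, BK KO replicate 2 or BK KO replicate 3) did not. The other 11 genes of a sphingosine-1-phosphate list, among them the remaining receptors and the kinases Sphk1 and Sphk2, were not listed in either tissue.

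**Figure D2:**
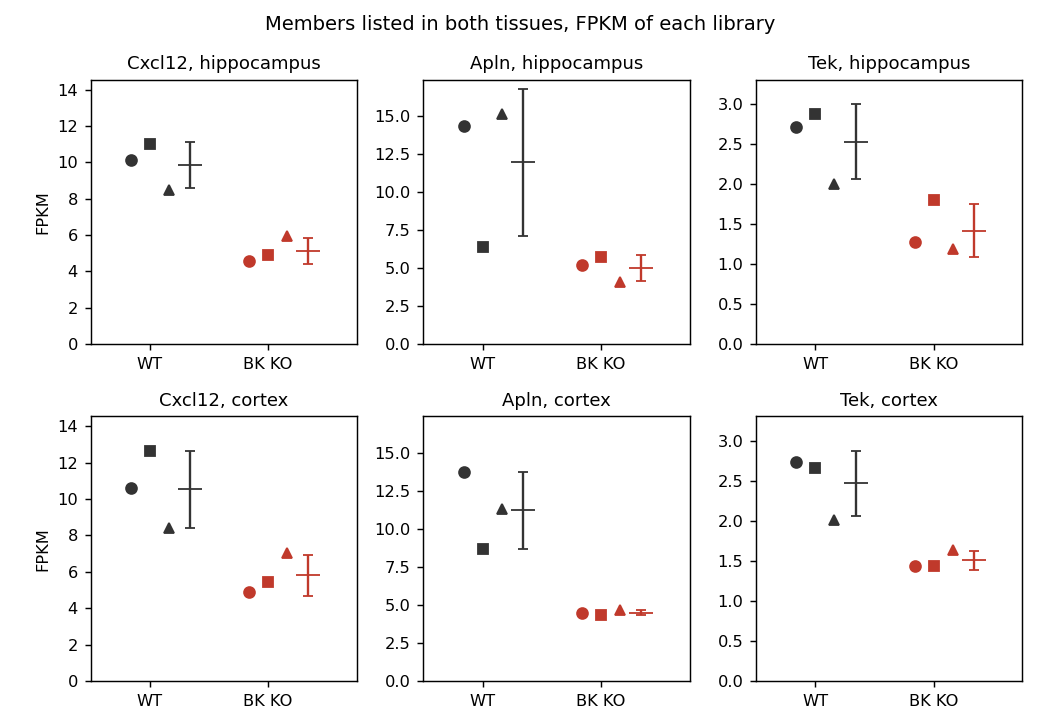
FPKM (vertical axes, from 0, with the same limits for both tissues of a gene) of Cxcl12, Apln and Tek, the members listed in both hippocampus and cortex, in each WT and BK KO library. Symbols mark the replicate number (circle 1, square 2, triangle 3) and bars the mean ± SD. The BK KO libraries lie below the WT libraries in all 6 panels.

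The adhesion genes differed in both directions. Cd34, a sialomucin of endothelial cells and blood progenitors, was 25.6, 26.3 and 20.0 FPKM in WT hippocampus and 15.8, 11.9 and 12.03 FPKM in BK KO hippocampus. The groups were clearly apart. The ratio of the means was 0.552, and the log2 fold change was -0.81 (standard error 0.16, limma adjusted p = 0.0156), past the threshold in all 6 fits that left out 1 library.

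Mcam, an adhesion molecule of pericytes, smooth muscle and endothelium, was 4.28, 5.99 and 6.05 FPKM in WT hippocampus and 3.51, 3.19 and 3.39 FPKM in BK KO hippocampus. The BK KO libraries were close to each other, and replicate 1 of WT was the nearest to them. The log2 fold change was -0.55 (standard error 0.14, limma adjusted p = 0.0204), short of the fold threshold, and -0.66 with a pseudocount of 0.1.

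Icam1 was 0.796, 1.13 and 0.747 FPKM in WT hippocampus and 1.51, 1.70 and 2.26 FPKM in BK KO hippocampus. Every BK KO library was above every WT library. The ratio of the means was 2.05, and the log2 fold change was 0.58 (standard error 0.14, limma adjusted p = 0.0189), which before rounding fell just short of the threshold, while with a pseudocount of 0.1 it was 0.96. The leukocyte integrin genes Itgal and Itgam and the gene Itga4 were not listed in hippocampus. In cortex these 3 were listed with lower means in BK KO mice, none past the threshold, with log2 fold changes of -0.23, -0.48 and -0.26, and Icam1 itself was not listed there.

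**Figure D3:**
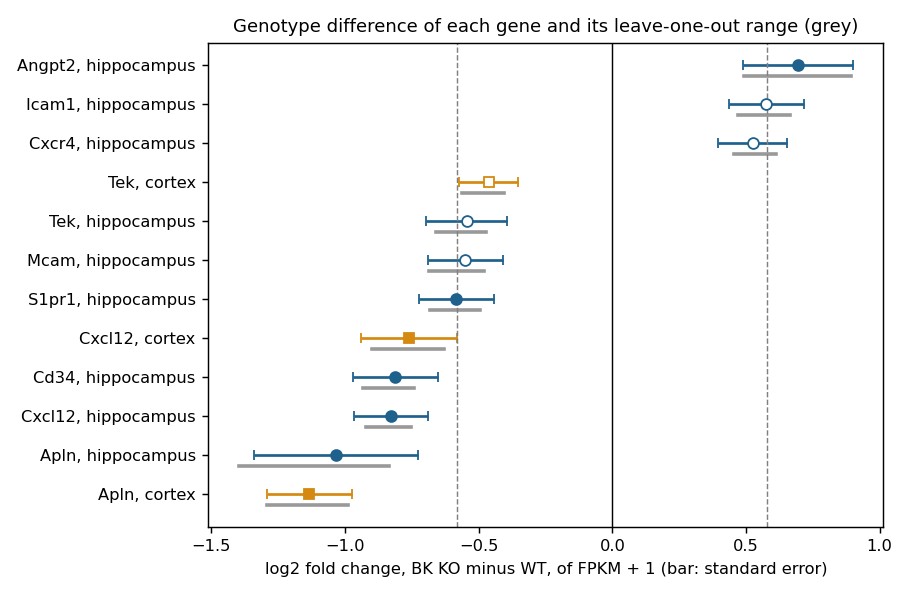
Log2 fold change of FPKM + 1, BK KO minus WT (horizontal axis), of each member in hippocampus (blue circles) and cortex (orange squares), with the standard error as a bar and the range over the 6 fits that left out 1 library as a grey line. Filled symbols are past the threshold and dashed lines mark a log2 fold change of 0.58 in either direction. Values run from -1.13 for Apln in cortex to 0.69 for Angpt2 in hippocampus.

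The 3 genes that were higher in BK KO hippocampus were those with the lowest WT levels of the 9. Only called genes are listed. A link of level with direction, or with being called at all, was not tested. By mean FPKM in WT hippocampus, which corrects for transcript length, the order was S1pr1 at 48.8, Cd34 at 24.0, Apln at 11.96, Cxcl12 at 9.88, Mcam at 5.44, Tek at 2.53, Icam1 at 0.890, Cxcr4 at 0.550 and Angpt2 at 0.399. The libraries of Apln and Cxcl12 overlapped and so did those of Cxcr4 and Angpt2, so that these neighbours cannot be ordered. In BK KO hippocampus the means of Icam1, Tek, Angpt2 and Cxcr4 were 1.82, 1.42, 1.32 and 1.23 FPKM. Neighbours in this order overlapped, while every Icam1 library lay above every Cxcr4 library. The libraries of Cxcl12 and Apln, with means of 5.13 and 5.02 FPKM, overlapped too.

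The balance of both ligand and receptor pairs differed between genotypes in hippocampus, a description chosen after the values were seen. The ratio of Angpt2 to Tek FPKM was 0.183, 0.147 and 0.138 in WT mice and 1.56, 0.694 and 0.601 in BK KO mice. In 1 of the BK KO libraries Angpt2 thus exceeded Tek. The ratio of Cxcl12 to Cxcr4 FPKM was 23.2, 15.5 and 16.8 in the WT libraries and 3.16, 3.82 and 6.10 in the BK KO libraries. Neither pair overlapped between genotypes, as follows from the opposite directions of the 2 genes in each.

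**Figure D4:**
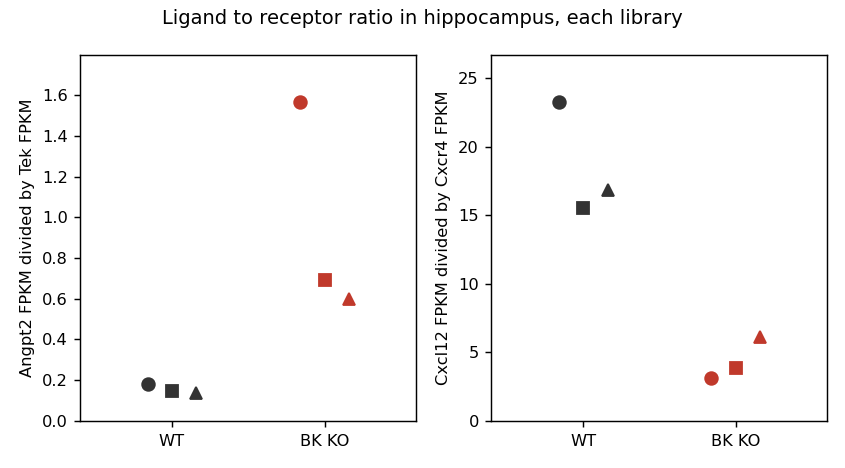
Ratio of ligand to receptor FPKM (vertical axes, from 0) in each hippocampus library, Angpt2 to Tek on the left and Cxcl12 to Cxcr4 on the right. Symbols mark the replicate number (circle 1, square 2, triangle 3). Angpt2 to Tek runs from 0.138 to 0.183 in WT and from 0.601 to 1.56 in BK KO mice, and Cxcl12 to Cxcr4 from 15.5 to 23.2 and from 3.16 to 6.10.

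The tissues were compared for the 3 members listed in both. The WT mean in cortex was 1.07 times that in hippocampus for Cxcl12, 0.975 times for Tek and 0.939 times for Apln. The interaction of genotype and tissue, cortex minus hippocampus, was 0.07 for Cxcl12 (standard error 0.23), 0.08 for Tek (standard error 0.19) and -0.10 for Apln (standard error 0.37). The limma adjusted p was 0.998 for each. This fit took all libraries as independent, although both tissues came from the same mice, so its standard errors do not allow for shared animals. For the same reason, the similar decreases in both tissues are not independent of each other. Of the 196 genes listed in both tissues, 0 had an unadjusted limma interaction p under 0.05, which is 0.00%, and genes called in both tissues were selected for changes in each. Such values give no evidence that a difference between tissues is absent. For the 6 members listed in hippocampus only, a tissue difference was not tested, because their cortex values are not in the table.

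Across the 12 libraries, the pattern of Cxcl12 on the log2 scale was most like those of Aif1l, Alpl and Pltp among the 196 genes in both tables, with Pearson r of 0.936, 0.928 and 0.921. The pattern of Tek was most like those of Alpl, Cxcl12 and Slco1c1, with r of 0.916, 0.903 and 0.896. That of Apln was most like those of Akt2, Exd2 and Adcy4, with r of 0.932, 0.905 and 0.899, while its r was 0.692 with Cxcl12 and 0.717 with Tek. These coefficients rest on 12 libraries that share the genotype contrast for which every gene was listed. Hippocampus and cortex came from the same mice, so the 12 libraries are not independent of each other.

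The other vessel markers listed beside the members were mostly lower in BK KO mice. Of 46 endothelial and mural (pericyte and smooth muscle) markers that are not members, 10 were listed in hippocampus. Of these, 9 were lower and 1 higher, beside 58.1% lower among all genes listed there. Past the threshold were 3 lower and 1 higher, beside 42.6% of all genes listed there. The 10 markers had a median log2 fold change of -0.53, against -0.27 for all listed genes. Their summed FPKM was 101.3 to 111.8 in the WT libraries and 73.6 to 84.8 in the BK KO libraries, without overlap. Taken singly, 8 of the 10 did not overlap between genotypes, beside 79.9% of all genes listed there. Each was listed because it was called on these libraries, so the separation of the sum is no independent result. The rest of the 46 were not listed in hippocampus. In cortex 4 were listed, all lower and 0 past the threshold, beside 70.4% lower and 30.8% past it among all genes listed there. The summed FPKM of these 4 was 25.8 to 43.1 in WT and 19.8 to 24.9 in BK KO libraries. Taken singly, 1 of the 4 did not overlap between genotypes, beside 80.6% of all genes listed in cortex. Defining endothelial genes such as Pecam1, Cdh5 and Cldn5 were not among the listed genes, and their levels were not analysed here.

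Tie1, the receptor that pairs with Tek, had a log2 fold change of -0.58 in hippocampus (standard error 0.12, past the threshold) and -0.46 in cortex (standard error 0.11, not past it). The endothelial gene Mfsd2a, a lipid transporter of the blood-brain barrier, was the exception, with a log2 fold change of 0.74 in hippocampus (standard error 0.27) and overlapping libraries, and it kept its call in 2 of 6 leave-one-out fits. Among the mural genes the most negative was Vtn, at -0.61 (standard error 0.16, past the threshold), and the least was Abcc9, at -0.27 (standard error 0.10, not past it). The members Angpt2, Cxcr4 and Icam1 were higher in the same hippocampus libraries in which most of these markers were lower. The part of vessel cell number in the members' differences, in either direction, was not tested.

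**Figure D5:**
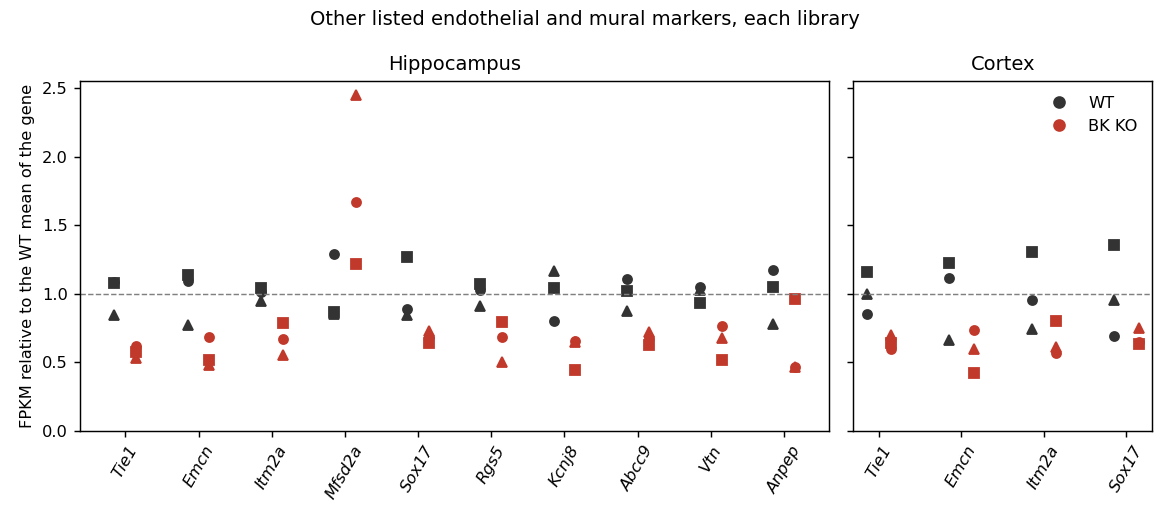
FPKM of the other listed endothelial and mural markers in each library, divided by the WT mean of the gene (vertical axis, dashed line at 1), in hippocampus (10 genes) and cortex (4 genes). Symbols mark the replicate number (circle 1, square 2, triangle 3). Mfsd2a is the one gene whose BK KO libraries all lie above the WT mean.

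Among genes known from endothelial tip cells, the leading cells of a sprout, 6 of 15 were listed in hippocampus. Of these, Angpt2, Cxcr4, Igfbp3 and Adm were higher and Apln and Cd34 lower. All but Cxcr4 were past the threshold, beside 42.6% of all genes listed in hippocampus, and 4 of the 6 are members. Igfbp3, a binding protein of insulin-like growth factors, had a log2 fold change of 0.83 in hippocampus (standard error 0.23) and 0.75 in cortex (standard error 0.24), and Adm, a vasodilator peptide, had 0.74 in hippocampus (standard error 0.26). Apln and Igfbp3 were the 2 of this list in cortex, in opposite directions. Heyl, a Notch target of mural cells, was the 1 listed gene of 11 in the Notch list, with log2 fold changes of 0.55 in hippocampus and 0.45 in cortex, short of the threshold. None of 10 genes of the VEGF list was listed in either tissue.

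Of 21 hypoxia-regulated genes 7 were listed in hippocampus, 5 of them members, with Angpt2 and Adm higher and Apln and Cxcl12 lower past the threshold, and Cxcr4, Hk2 and Tek short of it. Among all genes listed in hippocampus 42.6% were past the threshold and 58.1% were lower. These shares also stand beside the hippocampus counts that follow. In cortex the 3 listed hypoxia-regulated genes were the members Apln, Cxcl12 and Tek. In the pathway annotation of the tables, the apelin pathway held 8 genes in hippocampus, 4 higher and 4 lower, with 3 and 3 past the threshold. It held 8 in cortex, with lower means for all and 4 past the threshold, beside 70.4% lower and 30.8% past it among all genes listed there. Apln was the most negative of them, Mylk2 and Ryr1 are also skeletal muscle markers, and Adcy10 had overlapping groups and a BK KO to WT ratio of 0.965. The leukocyte transendothelial migration pathway held 4 genes in hippocampus, of which Cxcl12, Cxcr4 and Icam1 are members, and Mapk11 was lower with a log2 fold change of -1.05 (standard error 0.33). The HIF-1 pathway held 12 genes in hippocampus, 6 higher and 6 lower, the Rap1 pathway 12, 7 higher and 5 lower, and the cell adhesion molecules 5, 4 higher and 1 (Cd34) lower. In cortex, where 70.4% of listed genes were lower, the HIF-1 pathway held 6 genes, 1 higher and 5 lower with Tek among them, the Rap1 pathway 7, all lower with Tek among them, and the cell adhesion molecules 10, 1 higher and 8 lower, none of them a member. The leukocyte pathway held 7 there, 1 higher and 6 lower with Cxcl12 among them, and angiogenesis 9, 4 higher and 5 lower with Tek among them. The genes annotated to angiogenesis numbered 23 in hippocampus, 11 higher and 12 lower, with Angpt2, Mcam, S1pr1 and Tek among them and 7 higher and 6 lower past the threshold.

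Markers of other tissue also moved between the libraries. Over all listed genes, 58.1% were lower and 42.6% past the threshold in hippocampus, and 70.4% and 30.8% in cortex. The markers that follow were listed because they were called on these libraries, so their sums are descriptions only. In hippocampus 5 of 10 cortex markers were listed, all lower and 3 past the threshold, with a summed FPKM of 63.8 to 102.6 in WT and 40.2 to 61.9 in BK KO libraries, and the 1 listed hippocampus marker, Wfs1, was higher, with a log2 fold change of 1.25 (standard error 0.27). Wfs1 was also higher in cortex, at 34.7 to 38.9 FPKM in WT and 54.5 to 67.5 FPKM in BK KO libraries, with a log2 fold change of 0.68, past the threshold. In cortex 14 of 16 skeletal muscle markers were listed, all lower and 9 past the threshold, with a summed FPKM of 28.6 to 92.6 in WT and 7.85 to 10.2 in BK KO libraries. The red cell gene Hba-a2 was 17.6 to 32.8 FPKM in WT and 5.19 to 16.3 FPKM in BK KO cortex, and no red cell gene was listed in hippocampus. Of the lists of fibroblast, microglial, leukocyte, astrocyte, oligodendrocyte lineage, Cajal-Retzius and choroid plexus markers, Olig2 (lower, short of the threshold) and Reln (higher, with a log2 fold change of 1.05) were listed in hippocampus. In cortex they gave Slc22a6, Ogn, Itgam and H2-Aa, all lower with H2-Aa past the threshold, and the astrocyte gene Gfap, higher with a log2 fold change of 0.97. In cortex the log2 fold change was between -0.90 and -0.63 for Cxcl12 and between -1.29 and -0.99 for Apln in the fits that left out 1 library. The muscle sum and Hba-a2 were lower in every BK KO cortex library than in any WT one, so such fits cannot address them. The part of dissection and of blood in the members' differences was not tested.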

How the data were processed

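Libraries of poly-A RNA were built, with 2 μg of total RNA as input for each sample. The labels name the mm9 build, DESeq 1.10.1 and DESeq2, and the aligner and read counter are not given in the sources used here. The deposited per-library values are taken as FPKM, from their digits and their relation to transcript length, since the authors' text does not name the unit. The deposited base means are a normalized signal, the authors' group means of read counts divided by size factors. Columns with the authors' fold changes, p-values and adjusted p-values were not used, and 0 per-library columns were left unmatched to a sample.

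The limma fit of each tissue (version 3.58.1, R 4.3.3, without trend or block) was on log2(FPKM + 1), 3 BK KO against 3 WT libraries, over all listed genes, with Benjamini-Hochberg adjustment within the table. Fold changes on this scale understate those of low genes. The interaction fit used the 196 genes in both tables and all 4 groups, and took the libraries as independent. The script was tested on simulated data. Other steps used Python 3.11.15, pandas 2.3.3 and scipy 1.17.1. Depth per library is unknown, so no interval for counting error is given. The labels do not say that libraries of a shared number come from the same animal. The members and 22 gene lists were chosen with earlier results of these data known. Named genes are the members, Kcnma1, the largest and smallest change of lists, genes of the members' ligand and receptor pathways and the 3 genes most like a member. Of the genes given with values or a direction, Hk2, Itga4 and Ryr1 fall outside this rule and were named after their values were seen. Alternatives were pseudocounts, filters, limma's trend, the replicate block, a stricter fold threshold and leaving out each library.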

Additional observations from a re-analysis of the deposited data

How the results depend on the processing

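With a pseudocount of 0.1 the genes past the threshold numbered 548 in hippocampus and 408 in cortex, in place of 278 and 173, and the members 9 and 3, and with 0.5 the members in hippocampus were 9 as well. At a log2 fold change beyond 1 they numbered 35 and 25, with 1 member in each tissue, Apln. Leaving out 1 library gave 230 to 282 genes and 5 to 7 members in hippocampus, and 135 to 180 genes and 2 members in cortex. The member calls that were lost were those of S1pr1 (3 of 6 such fits) and Angpt2 (without BK KO replicate 1), and Cxcr4, Tek, Icam1 and Mcam each gained a call in at least 1 hippocampus fit. A filter at a mean of 1 FPKM removed Cxcr4 and Angpt2. No member's genotype difference changed direction under the alternatives run. The interaction estimates did change sign when 1 library was left out. They ran from -0.07 to 0.20 for Cxcl12, from -0.02 to 0.19 for Tek and from -0.30 to 0.26 for Apln. The interaction count of 0 became 2 with a pseudocount of 0.1, 1 with limma's trend, and 0 to 2 when 1 library was left out. When replicate number entered as a block in the fit of each tissue, 272 genes and 5 members in hippocampus and 165 genes and 2 members in cortex were past the threshold. No member's call changed. The interaction fit instead took libraries of the same genotype and number as correlated, and its count was then 1. Deviations of same-numbered WT and BK KO libraries from their group means correlated at -0.0685 to 0.0840 in hippocampus and at -0.239 to 0.125 in cortex. These values rest on 3 libraries per group and on selected genes, so they cannot show whether the numbers pair the libraries. Between tissues, same-numbered libraries correlated at 0.511 to 0.655 in BK KO and at -0.000417 to 0.494 in WT mice. Depth is unknown, which leaves the counting error of Angpt2, Cxcr4 and Icam1, the members with the lowest WT levels, without a value.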
